A study of Homo sapiens with 8 samples.

Results

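The genes described here are 36 members of the cellular defence against oxidants, set by name: the transcription factor NRF2 (gene NFE2L2) with its regulators, and enzymes that remove peroxides, make glutathione or supply NADPH. Open chromatin was taken from the 4 deposited lists of accessible regions (peaks). Overlapping or adjoining peaks of the 4 lists were joined into merged regions, and those that overlap a gene or the 5 kb on each side of it are described. This gave 136 of 129052 merged regions, at 35 of the 36 genes. The assay was ATAC-seq, which uses a transposase to insert adapters where DNA is accessible. The cells were U2OS, an established human osteosarcoma line, synchronised by a double thymidine block and collected from 3 h after release. The groups, each of 2 libraries from batches 1 and 2, were siOrc6 cells after 5 mM H2O2 for 30 min, siOrc6 cells without treatment, control siRNA (siGl3) cells after the same H2O2, and siGl3 cells without treatment. Knockdown had run for 72 h before synchronisation. The labels do not say whether the libraries of a group came from separate cultures, and the lists do not measure ORC6 itself. Orc6 belongs to the origin recognition complex, which marks where replication starts, and H2O2 is itself the substrate of many of the enzymes described here.

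NRF2 is held in the cytoplasm and marked for degradation by KEAP1. Oxidants modify KEAP1, and NRF2 then enters the nucleus, pairs with a small MAF protein (MAFF, MAFG) and binds antioxidant response elements, whose core is TGACNNNGC, at genes such as NQO1, HMOX1, GCLM and TXNRD1. BACH1 occupies the same elements as a repressor. Glutathione and thioredoxin carry the reducing power to peroxidases, and NADPH recharges both.

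Each condition had 1 list made from both of its libraries, so no spread between replicates, batch comparison, depth or fold change can be given and no difference was tested. In bulk libraries a larger share of cells with an open region and a wider opening in each cell cannot be told apart. The lists held between 97816 and 115292 peaks on chromosomes 1 to 22 and X. Peak signal, the authors' value for each peak, is given as its percentile within its own list, that is the share of that list's peaks with the same or a lower signal. It went up with peak width (Spearman correlation between 0.842 and 0.882 across the peaks of a list). Of 8 osteoblast lineage markers, 6 had a peak within 1 kb of a gene end in every list (RUNX2, SP7, COL1A1, COL1A2, SPARC and BGLAP, not ALPL or IBSP), against 2 of 4 blood markers (CD3E and SPI1), 1 of 3 epithelial ones (EPCAM) and 1 of 2 neuronal ones (SNAP25).

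Start regions were defined as the strongest merged region, by mean signal over the lists, at a promoter window of a gene in a RefSeq table. For genes without an entry there, the strongest one within 1 kb of a gene end was taken. An end of a gene is either of its annotated ends, its start included. The sequences below are the 250 bases before the start site of 4 genes, 5′ to 3′, from RefSeq (GRCh38.p14). They show the genes whose start region is described most closely below: GCLM and ME1 with a response element inside it, TXNRD1 with 1 start site inside an accessible region and 1 outside, and PRDX2, whose start region differed most between lists. Capitals mark matches to TGACNNNGC or to the AP-1 motif TGACTCA on either strand.
GCLM, chr1:93909431-93909680, minus strand: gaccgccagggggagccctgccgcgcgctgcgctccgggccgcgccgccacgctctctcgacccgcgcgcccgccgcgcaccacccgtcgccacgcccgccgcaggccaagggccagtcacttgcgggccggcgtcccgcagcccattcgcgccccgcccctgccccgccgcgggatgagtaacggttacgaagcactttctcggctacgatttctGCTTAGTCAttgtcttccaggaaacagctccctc
ME1, chr6:83431052-83431301, minus strand: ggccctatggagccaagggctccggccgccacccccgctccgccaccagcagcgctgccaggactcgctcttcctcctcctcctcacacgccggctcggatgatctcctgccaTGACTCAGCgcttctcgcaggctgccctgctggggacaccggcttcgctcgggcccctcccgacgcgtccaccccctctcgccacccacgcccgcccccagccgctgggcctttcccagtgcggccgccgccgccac
TXNRD1 upstream start, chr12:104215529-104215778, plus strand: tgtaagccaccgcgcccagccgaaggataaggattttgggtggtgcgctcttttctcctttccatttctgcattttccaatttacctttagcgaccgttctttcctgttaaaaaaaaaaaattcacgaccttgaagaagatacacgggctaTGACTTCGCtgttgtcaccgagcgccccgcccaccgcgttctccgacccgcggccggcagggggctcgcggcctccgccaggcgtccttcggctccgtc
TXNRD1 downstream start, chr12:104286782-104287031, plus strand: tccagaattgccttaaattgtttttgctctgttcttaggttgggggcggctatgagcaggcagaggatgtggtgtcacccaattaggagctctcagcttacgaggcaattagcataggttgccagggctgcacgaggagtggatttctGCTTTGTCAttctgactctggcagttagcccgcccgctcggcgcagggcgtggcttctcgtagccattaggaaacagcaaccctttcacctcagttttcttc
PRDX2, chr19:12801801-12802050, minus strand: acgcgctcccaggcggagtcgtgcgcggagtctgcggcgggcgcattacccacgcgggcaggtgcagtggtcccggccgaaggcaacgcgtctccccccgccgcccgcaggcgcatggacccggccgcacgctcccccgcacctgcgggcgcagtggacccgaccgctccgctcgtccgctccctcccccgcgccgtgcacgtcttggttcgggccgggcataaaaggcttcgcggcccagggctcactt
Of 28 members with a promoter entry, 7 had a match to TGACNNNGC within 250 bases before to 50 after a start site: GCLM, IDH1, KEAP1, MAFF, ME1, PGD and TXNRD1. By window this was 8 of 41 (19.5%), against 13.8% of 22132 such windows of coding genes. The AP-1 motif was in windows of BACH1, ME1 and OSGIN1 (3 of 41, 7.32%, against 4.01%), and in ME1 it lies within the response element match. A match describes letters in a window only, and elements farther from the start were not searched.

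Nearly all members had an open start in every condition. A start region was found for 34 of the 36 genes, and all 34 were in all 4 lists, as were 93.9% of 12265 start regions of coding genes. In 26 of the 34, peak signal was at or above the 90 percentile in every list, against 39.3% of start regions of coding genes. NFE2L2 itself was among the highest. Its region (chr2:177263255-177265591, hg38 as are all positions of regions) ranked at the 98.9 percentile in siOrc6 cells with H2O2 and 99.1 in untreated siOrc6 cells, and at 99.1 in siGl3 cells both with H2O2 and untreated. These values hardly differ, and none of its 3 regions was in a list of changed regions.

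**Figure D1:**
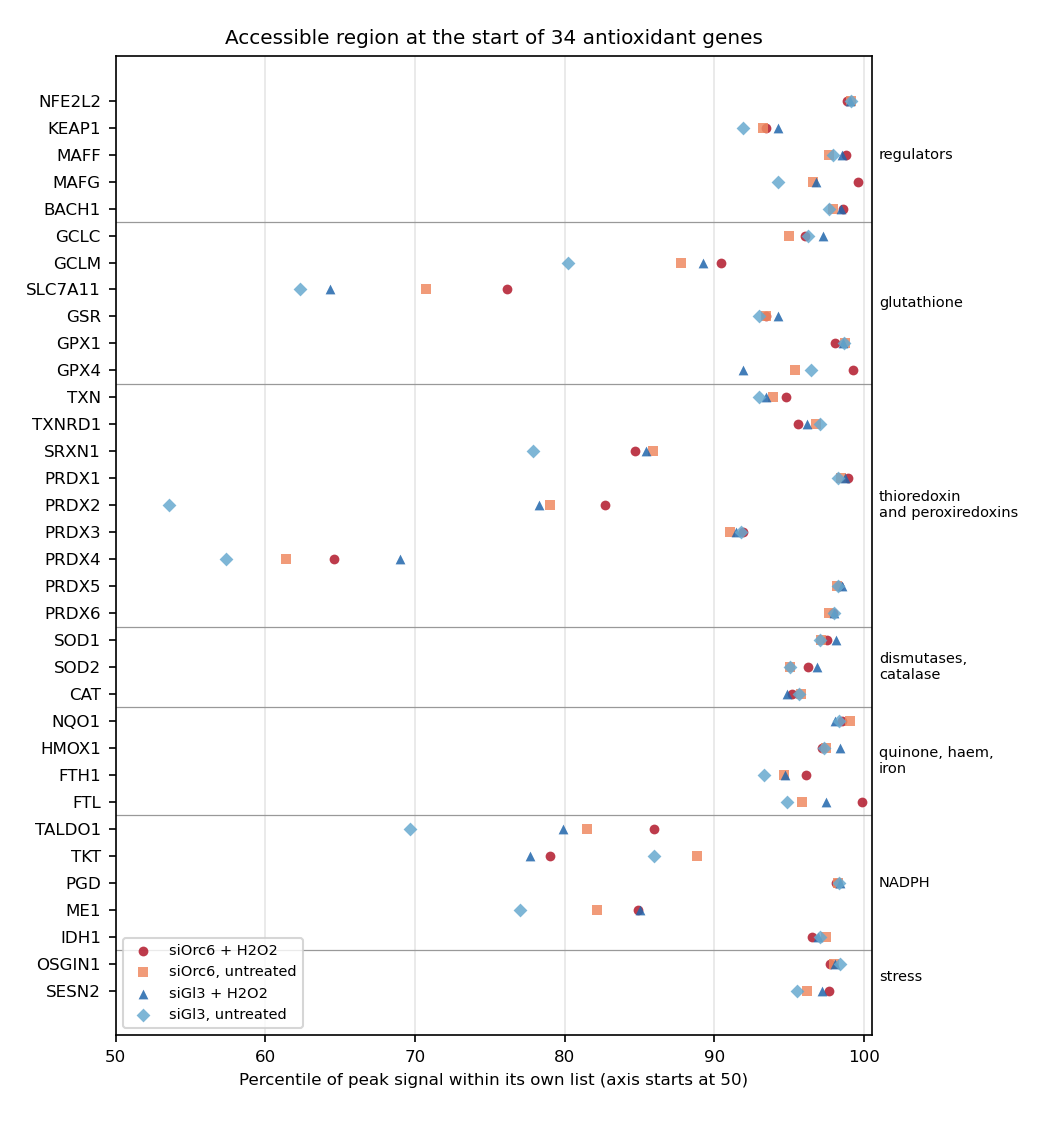
Percentile of peak signal within its own list (horizontal axis, which starts at 50) of the start region of 34 antioxidant genes, 1 row per gene, grouped by role, with 1 symbol per list. Most genes sit above the 90 percentile in all lists, while PRDX2, PRDX4, TALDO1, SLC7A11 and TKT spread out below it.

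Of the other regulators, 4 had a start region in every list. KEAP1 (chr19:10501987-10504039) ranked at 93.4 in siOrc6 cells with H2O2 and 93.2 without, and at 94.2 in siGl3 cells with H2O2 and 91.9 without. MAFF lay between the 97.7 and 98.8 percentiles and BACH1 between 97.6 and 98.6. MAFG (chr17:81925959-81929393) ranked at 99.6 in siOrc6 cells with H2O2 and 96.6 without, and at 96.8 in siGl3 cells with H2O2 and 94.2 without. The MAFG start was thus highest in the list that combined both perturbations, where it was 3238 bp wide, against 2654 bp in untreated siOrc6 cells, 2995 bp in siGl3 cells with H2O2 and 2657 bp in untreated siGl3 cells. In that list the MAFG region was 1 peak, and in each of the others it was split into 2. The part of this split in the higher rank was not tested. NFE2L3, a relative of NFE2L2, had no peak at its promoter window in any list. Its nearest region began 1.85 kb inside the gene.

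Among the glutathione genes, GCLC and GCLM encode the catalytic and modifier subunits of the first enzyme of glutathione synthesis, and SLC7A11 brings in the cystine it needs. The GCLC start lay between the 94.99 and 97.3 percentiles. The GCLM start (chr1:93908635-93910223) ranked at 90.5 in siOrc6 cells with H2O2 and 87.8 without, and at 89.2 in siGl3 cells with H2O2 and 80.2 without. Untreated siGl3 cells were thus the lowest of the 4, and in that list alone the region was made of 2 peaks. SLC7A11 (chr4:138241772-138242677) ranked lower, at 76.1 in siOrc6 cells with H2O2 and 70.8 without, and at 64.3 in siGl3 cells with H2O2 and 62.3 without. GSR, which reduces oxidised glutathione, lay between 93.0 and 94.3, and GPX1, a glutathione peroxidase, between 98.1 and 98.7. The GSR region was also at an end of UBXN8, and the GPX1 region at an end of RHOA. GPX4, the peroxidase of membrane lipids, ranged more widely, at 99.3 in siOrc6 cells with H2O2 and 95.4 without, and at 91.9 in siGl3 cells with H2O2 and 96.5 without. Its H2O2 lists thus lay on opposite sides of the untreated ones, and its region held 1 peak in the first list and 2 or 3 in the others.

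The thioredoxin genes divided into starts near the top of the lists and a few lower ones. TXN, the carrier, lay between 93.0 and 94.8. TXNRD1, its reductase, lay between 95.6 and 97.1 at the downstream start shown above, while the upstream start site had no peak in any list and the nearest region began downstream of it, at 104218671. Of the peroxiredoxins, which break down H2O2 directly, PRDX1, PRDX5 and PRDX6 lay between 97.7 and 98.9 and the mitochondrial PRDX3 between 91.1 and 91.9. The PRDX5 region was also at ends of ESRRA and TRMT112. PRDX2 (chr19:12801086-12802528) ranked at 82.7 in siOrc6 cells with H2O2 and 79.1 without, and at 78.3 in siGl3 cells with H2O2 and 53.6 without. Its untreated siGl3 value stands far below the other 3. That list had 2 peaks there and the others 1. PRDX4 of the endoplasmic reticulum (chrX:23667252-23667984) ranked at 64.6 in siOrc6 cells with H2O2 and 61.4 without, and at 69.0 in siGl3 cells with H2O2 and 57.4 without, with 1 peak in every list. SRXN1, which restores over-oxidised peroxiredoxins, ranked at 84.7 in siOrc6 cells with H2O2 and 85.9 without, and at 85.4 in siGl3 cells with H2O2 and 77.9 without.

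SOD1 and SOD2, the cytosolic and mitochondrial superoxide dismutases, and CAT, which splits H2O2, varied little at the region taken as the start. SOD1 lay between 97.1 and 98.1, CAT between 94.8 and 95.8, and the SOD2 region, shared with the end of WTAP, between 95.1 and 96.9. A weaker region (chr6:159692355-159694573) covers another SOD2 start site and varied more. It ranked at 94.99 in siOrc6 cells with H2O2 and 94.60 without, and at 94.48 in siGl3 cells with H2O2 and 91.03 without. Among genes for quinones, haem and iron, NQO1 (chr16:69725270-69728195) ranked at 98.5 in siOrc6 cells with H2O2 and 99.1 without, and at 98.1 in siGl3 cells with H2O2 and 98.3 without. HMOX1, haem oxygenase and a classical oxidant-induced gene, ranked at 97.2 in siOrc6 cells with H2O2 and 97.5 without, and at 98.4 in siGl3 cells with H2O2 and 97.4 without. Both were thus already open without H2O2. The ferritin chains FTH1 and FTL, which store iron, ranked at 96.1 and 99.9 in siOrc6 cells with H2O2 and 94.6 and 95.8 without, and at 94.7 and 97.5 in siGl3 cells with H2O2 and 93.3 and 94.8 without.

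Of the genes that supply NADPH, PGD lay between 98.1 and 98.4 and IDH1 between 96.5 and 97.5. TALDO1, a transaldolase of the pentose phosphate pathway (chr11:746683-748351), ranked at 86.0 in siOrc6 cells with H2O2 and 81.5 without, and at 79.9 in siGl3 cells with H2O2 and 69.7 without. Malic enzyme ME1 (chr6:83430232-83431566) ranked at 84.9 in siOrc6 cells with H2O2 and 82.2 without, and at 85.0 in siGl3 cells with H2O2 and 77.0 without. Both genes had 1 peak in each list and were lowest in untreated siGl3 cells. TKT, a transketolase of the same pathway (chr3:53254414-53256404), ran the other way, at 79.0 in siOrc6 cells with H2O2 and 88.8 without, and at 77.7 in siGl3 cells with H2O2 and 86.0 without. The TKT region held 2 peaks in each H2O2 list and 1 in each untreated list. Of the remaining members, OSGIN1 lay between 97.7 and 98.4 and SESN2 between 95.6 and 97.6. ABCC1, an exporter of glutathione conjugates, had no peak within 5 kb in any list. It lies in a stretch of 2.60 Mb on chromosome 16 (14409964 to 17013589) with 24 coding genes and no listed peak, and was not analysed further.

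H2O2 against no treatment was the main comparison, and the first question was which regions were listed at all. At antioxidant genes few regions were missing from the H2O2 lists when lists were matched by overlap. Of 127 regions listed in siOrc6 cells, 9 (7.09%) were listed only with H2O2, where 6.48% of regions near coding genes were, and 8 (6.30%) only without it, where 14.2% were. Of 123 regions listed in siGl3 cells, 12 (9.76%) were listed only with H2O2, where 7.40% of regions near coding genes were, and 6 (4.88%) only without it, where 14.4% were. The gains are near the background, while the losses are lower by this measure. For siOrc6 cells the lower losses depended on how peaks were matched. When peak midpoints had to lie within 500 bp of each other, 18 of 143 (12.6%) were listed only without H2O2 and 17 (11.9%) only with it, and with the 80000 peaks of highest signal per list 2.75% were listed only without it. The background was not computed for these settings. Under both siRNAs together, 3 regions (2.21%) were listed only with H2O2, where 1.71% of regions near coding genes were, and 0 of 136 only without it, where 4.31% were. The regions of these genes had higher signal than others: their median percentile was between 64.3 and 71.1 across the lists, against 53.5 to 54.6 for regions near coding genes. The part of that in the smaller losses was not tested.

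**Figure D2:**
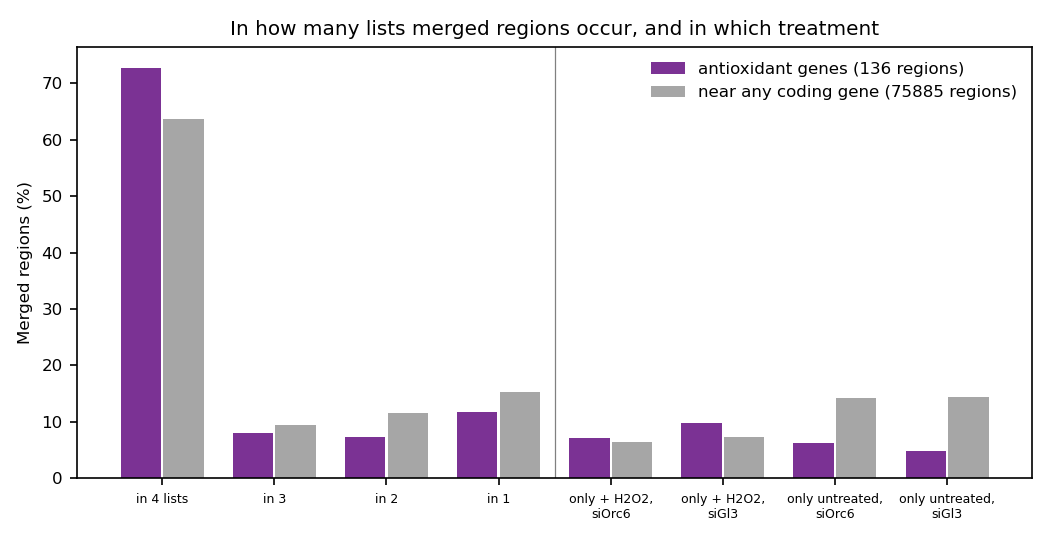
Share of merged regions (percent) by the number of lists they occur in (left) and listed only with H2O2 or only untreated (right, as a share of the regions listed in either treatment), for antioxidant genes and for regions near any coding gene. Antioxidant genes have 72.8% in all 4 lists against 63.6%, and smaller shares listed only untreated.

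The 3 regions listed only with H2O2 under both siRNAs were in NFE2L3, MAFF and ME1. None was a start region. The one in NFE2L3 (chr7:26178339-26180521), 26.1 kb from the gene start, was 2183 bp wide in siOrc6 cells with H2O2, at the 83.5 percentile, and 1738 bp wide in siGl3 cells with H2O2, at 58.9. It was absent from both untreated lists. Among all 1865 regions listed only with H2O2 under both siRNAs it was the 3rd widest, and by peak signal in place 1 in siOrc6 cells and 14 in siGl3 cells, whereas the median over these regions was 296 bp in width and a percentile of 13.8 in siOrc6 and 16.7 in siGl3 cells. Those in MAFF (226 bp, percentiles 19.8 in siOrc6 and 1.41 in siGl3 cells, both with H2O2) and ME1 (301 bp, 10.4 and 14.3) were small and weak.

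Around it, NFE2L3 had more regions missing from at least 1 list than any other member. Of its 10 regions 4 were in all lists. In its 3 regions nearest the gene start the signal percentile was lower with H2O2 under both siRNAs, as in the region at chr7:26155327-26157118, at 93.7 in siOrc6 cells with H2O2 and 97.3 without, and at 93.4 in siGl3 cells with H2O2 and 97.4 without. The H2O2 lists were shorter than the untreated ones. Ranked among regions found in all 4 lists, as below, the 3 regions differed by -37.6, -1.05 and -4.06 points in siOrc6 cells. In siGl3 cells they differed by -16.1, -1.42 and -4.79 points. Toward its far end lay a region (chr7:26182291-26183703) listed at 70.6 in siOrc6 cells with H2O2, 1.52 in untreated siOrc6 cells and 13.5 in siGl3 cells with H2O2, and not in untreated siGl3 cells. The region at the far gene end (chr7:26186916-26188936, also at an end of HNRNPA2B1) was listed at 41.4 in siOrc6 cells with H2O2, 72.5 in untreated siOrc6 cells and 33.5 in untreated siGl3 cells.

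**Figure D3:**
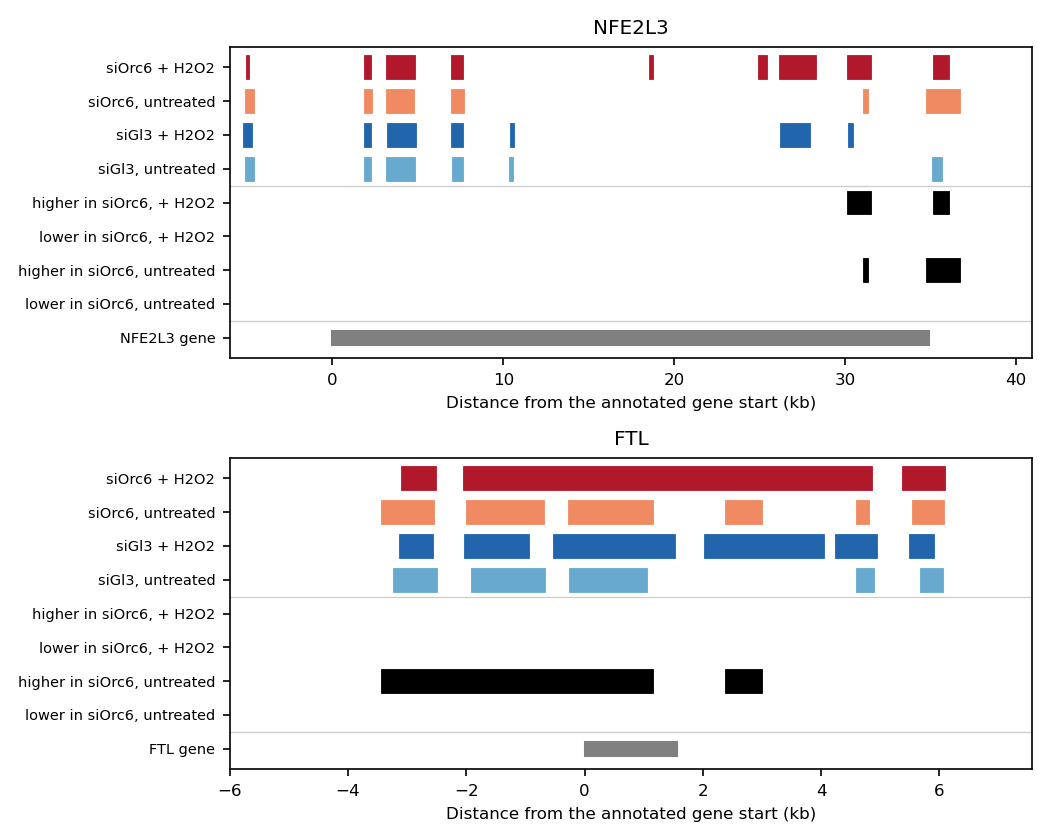
Peaks of the 4 lists (coloured boxes) and regions deposited as higher or lower in siOrc6 (black boxes) at NFE2L3 and FTL, by distance from the annotated gene start in kb; the grey box is the gene. NFE2L3 has a region about 26.1 kb from its start only with H2O2. At FTL a single peak runs past the gene end in siOrc6 cells with H2O2, and in the other lists separate peaks lie beyond the gene.

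Presence in all lists does not show how a region compares with others, so the 80119 merged regions found in all 4 lists were ranked again among themselves, which gives every list the same length. This rank is also a percentile. Over the 99 such regions of antioxidant genes, the median difference with H2O2 minus untreated was 0.77 points in siOrc6 cells and 0.54 points in siGl3 cells, and near coding genes it was 0.35 and 0.38. Start regions moved more: the median difference over 34 was 1.16 points in siOrc6 cells and 1.65 in siGl3 cells, against 1.26 and 2.05 over start regions of coding genes. Of the 34, 25 ranked higher with H2O2 under both siRNAs (73.5%, against 63.4% of start regions of coding genes) and 5 lower under both (14.7%, against 16.1%). The higher ranks at antioxidant gene starts are thus close to those at gene starts at large.

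By size and same sign under both siRNAs, the leading genes were PRDX2, PRDX4, TALDO1, ME1, GCLM, TKT, SLC7A11 and SRXN1. None of these starts was at or above the 90 percentile in every list, whereas the other 26 were. Ranks near the top have little room to rise, and the part of the starting level in this order was not tested. Start regions of coding genes are set beside them whatever their level. PRDX2 ranked 7.33 points higher with H2O2 in siOrc6 cells and 36.6 points higher in siGl3 cells, which places it at the 81.2 and 97.3 percentiles of start regions of coding genes. PRDX4 differed by 9.05 and 20.1 points, TALDO1 by 7.97 and 17.1 points, and ME1 by 5.79 and 13.4 points, in siOrc6 and siGl3 cells in that order. GCLM differed by 4.96 and 14.2 points and SRXN1 by 0.57 and 12.7 points. In each of these 6 the siGl3 difference was the larger one by peak signal, a contrast that was not tested and that did not hold for every measure. By signal per base pair, chosen after seeing the data, it ran the other way at SRXN1 (39.0 points in siOrc6 and 27.1 in siGl3 cells), TALDO1 (22.3 and 17.0) and GCLM (22.3 and -3.57). SLC7A11 differed by 10.5 and 7.77 points. TKT ranked lower, by -10.3 and -8.54 points, which are the 1.43 and 2.14 percentiles of start regions of coding genes.

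Other measures of the peak gave other values at some of these starts. SRXN1 in siOrc6 cells differed by 5.21 points with the signal of all peaks summed and by 8.99 points with −log10 p, and PRDX2 in siGl3 cells by 18.2 points per base pair. With summed signal, PRDX2 differed by 7.38 points in siOrc6 cells and 25.6 in siGl3 cells, and TKT, which was split into 2 peaks with H2O2, by -1.14 and 1.88. With −log10 p in place of peak signal, PRDX2, PRDX4, TALDO1, ME1, GCLM and SRXN1 again ranked higher with H2O2 under both siRNAs, while TKT differed by 0.27 and 10.1 points and SLC7A11 by -3.05 and 5.41. With signal per base pair PRDX2, PRDX4, TALDO1, ME1 and SRXN1 again ranked higher under both siRNAs, and GCLM only in siOrc6 cells (22.3, and -3.57 in siGl3 cells). PRDX4, TALDO1 and ME1 thus ranked higher by every measure run and had 1 peak in each list.

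**Figure D4:**
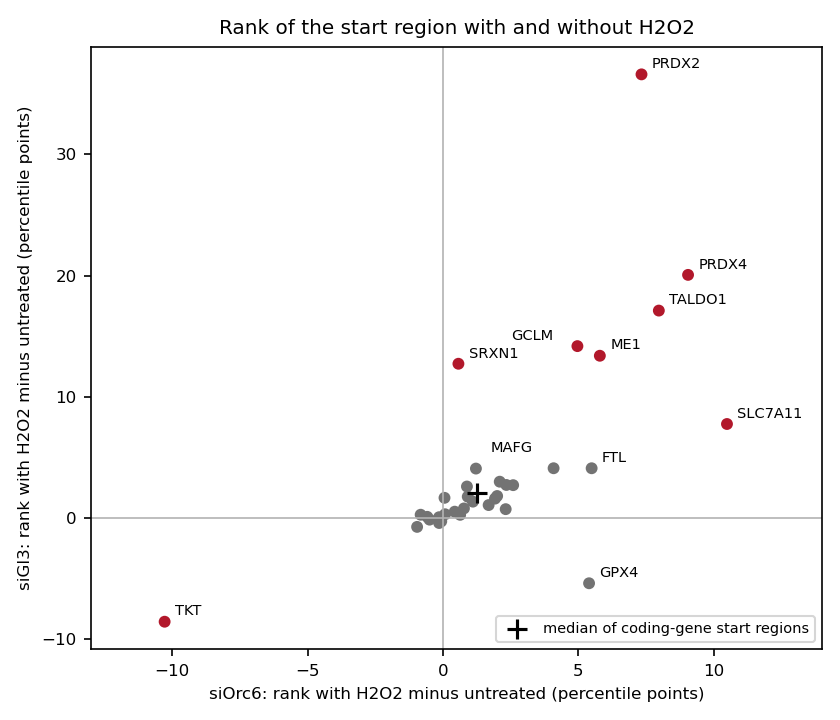
Difference in rank with H2O2 minus untreated, in percentile points among regions found in all 4 lists, in siOrc6 (horizontal) and siGl3 cells (vertical), for the start regions of 34 antioxidant genes. Red points are the 8 leading genes, and the cross is the median of start regions of coding genes (1.26 and 2.05); PRDX2 is highest in siGl3 cells at 36.6 points.

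Among the genes that NRF2 is best known to induce, the starts of NQO1 and TXNRD1 did not rank higher with H2O2. NQO1 differed by -0.50 points in siOrc6 and -0.12 in siGl3 cells, TXNRD1 by -0.96 and -0.72, HMOX1 by 0.05 and 1.68, GCLC by 2.00 and 1.83, and NFE2L2 by -0.15 and 0.08. All 5 starts ranked near the top of every list, where a rank has little room above it. The part of that level in these differences was not tested. Starts of GCLM, SRXN1 and SLC7A11 lay lower in the lists and ranked higher with H2O2 by peak signal among shared regions. They differed by 4.96 and 14.2, 0.57 and 12.7, and 10.5 and 7.77 points, GCLM and SLC7A11 not in the same direction by every measure. By percentile within its own list, SRXN1 in siOrc6 cells was lower with H2O2, at 84.7 against 85.9.

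Widths differed little with H2O2 in the median. The median log2 ratio of width, with H2O2 over untreated, was -0.03 over 110 regions in siOrc6 cells and -0.02 over 105 in siGl3 cells, against -0.06 and -0.07 near coding genes. Among start regions, FTL had the highest ratio under both siRNAs. Its start region covered 6914 bp of peaks in siOrc6 cells with H2O2 and 3617 bp without, and 5915 bp in siGl3 cells with H2O2 and 2879 bp without. The log2 ratios of 0.93 and 1.04 lie at the 98.9 and 98.8 percentiles of start regions of coding genes. In siOrc6 cells with H2O2 a single peak ran from -2.05 kb to 4.86 kb of the FTL start, past the 1.57 kb gene, whereas the region was split into 3 or 4 peaks in the other lists. In siGl3 cells with H2O2 a peak of 2024 bp lay between 2.03 and 4.05 kb from the start, where untreated siGl3 cells had none and untreated siOrc6 cells one of 625 bp. That stretch reaches an end of GYS1 and counts in the summed width. The peak over the FTL start itself was 2075 bp wide in siGl3 cells with H2O2 and 1325 bp without. At the MAFG start the log2 ratios were 0.29 and 0.17, and at the FTH1 start 0.05 and -0.02. Outside start regions, 2 regions chosen after their values were seen had ratios of similar size or above. A flank region of OSGIN1 (chr16:83968041-83968770) was 428 bp wide in siOrc6 cells with H2O2 and 174 bp without, and 730 bp in siGl3 cells with H2O2 and 282 bp without, log2 ratios of 1.30 and 1.37. Its rank among shared regions differed by 22.2 points in siOrc6 and 53.6 points in siGl3 cells, from percentiles as low as 2.80 and 7.13 in the untreated lists. A region inside PRDX1 (chr1:45512353-45513147, also at an end of MMACHC) had log2 ratios of 1.23 and 0.85. Other regions outside starts went the other way. A different flank region of OSGIN1 (chr16:83950993-83951790) had log2 ratios of -1.21 and -0.03, and its rank differed by -41.8 and -12.1 points. In a flank region of NFE2L3 (chr7:26146993-26147586) the ratios were -1.28 and 0.06, and the rank differed by -37.6 and -16.1 points.

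The second comparison was of siOrc6 with siGl3 cells, through the authors' lists of regions higher or lower after Orc6 knockdown. These lists give positions only, without fold changes. Without H2O2, 18 of the 136 regions (13.2%, Wilson 95% interval 8.54% to 20.0%) overlapped a region deposited as higher, at 13 of the 35 genes with a region, where 6.38% of regions near coding genes and 20.2% of coding genes with a region did. By contrast 3 (2.21%) overlapped one deposited as lower, where 4.26% did, at 3 genes, where 13.7% of coding genes with a region did. By place, 6 of the 18 were start regions (6 of 34, 17.6%, against 8.15% of start regions of coding genes; 0 were lower, against 0.424%), 6 lay elsewhere inside a gene and 6 in the flanks. The interval reflects counting alone and takes neighbouring regions as separate draws. Regions of these genes were wide, with median widths between 710 and 798 bp across the lists against 508 to 546 bp near coding genes, and the deposited higher regions were wide as well (median 648 bp for all 7517, 1195 bp for the 17 at antioxidant genes). The part of width in the excess was not tested.

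**Figure D5:**
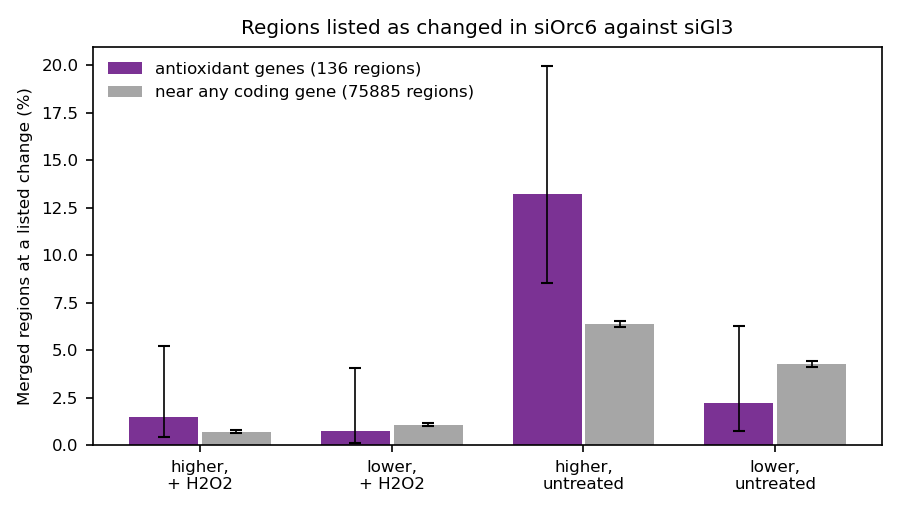
Share of merged regions (percent) at a region deposited as higher or lower after Orc6 knockdown, relative to siGl3, with H2O2 and untreated, for antioxidant genes and for regions near any coding gene. Error bars are Wilson 95% intervals, which reflect counting alone. The untreated higher list gives 13.2% against 6.38%.

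The starts listed as higher in untreated siOrc6 cells were those of MAFG, GCLM, PRDX2, NQO1, FTL and TALDO1. At PRDX2 the deposited region spanned 1229 bp (chr19:12801300-12802528, also at an end of THSD8), and the start region ranked at the 79.1 percentile in siOrc6 cells, against 53.6 in siGl3 cells. At TALDO1 it spanned 1659 bp (chr11:746682-748340), with 81.5 in siOrc6 cells, against 69.7 in siGl3 cells, and a peak of 1658 bp against 783 bp. At GCLM it spanned 1571 bp (chr1:93908653-93910223), with 87.8 in siOrc6 cells, against 80.2 in siGl3 cells, and it holds the response element match shown above. The NQO1 start was wider in siOrc6 cells, at 2926 bp against 2086 bp in siGl3 cells, and the deposited region of 3215 bp (chr16:69725269-69728483) also took in a peak of 160 bp that was listed in untreated siOrc6 cells alone. At FTL a region of 4589 bp reached from an end of BAX into the gene, and a second of 626 bp lay behind it, at an end of GYS1. MAFG had 2 listed regions, 1 of 1693 bp at the start and 1 of 1195 bp inside the gene.

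Other listed higher regions lay inside or beside genes. FTH1 had one of 575 bp near its lower-coordinate end (chr11:61962859-61963433), where the peak was listed at the 29.4 percentile in siOrc6 cells with H2O2 and 10.5 in untreated siOrc6 cells, and in neither siGl3 list. PRDX5 had one of 670 bp at its downstream end, TXNRD1 one of 1651 bp between its start sites (chr12:104218670-104220320), GSR one of 435 bp, NFE2L3 2, and SRXN1 and GCLC 1 each in the flank. A region of 869 bp beside PRDX2 lay at an end of RNASEH2A. The 3 listed lower regions were inside PGD (517 bp), SESN2 (305 bp) and GSR (553 bp). The one in PGD (chr1:10403573-10404105) ranked at 10.9 in untreated siOrc6 cells, against 59.5 in untreated siGl3 cells, while the PGD start stayed at 98.3 in both. In SESN2 the region was listed in untreated siGl3 cells alone.

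With H2O2 fewer regions were listed, in all and at these genes. Of the 136 regions, 2 (1.47%) overlapped one higher in siOrc6, where 0.706% of regions near coding genes did, and 1 (0.74%) one lower, where 1.06% did. Both higher ones were in NFE2L3, at 26182290 to 26183703 and at 26187355 to 26188298, and both merged regions were also in the untreated higher list. The lower one was in GSR (240 bp, within the region listed as lower without H2O2), where a peak was listed in both siGl3 lists, at 33.4 with H2O2 and 58.9 without, and in neither siOrc6 list. By gene, 1 of 35 had a higher region, where 2.76% of coding genes with a region did, and 1 a lower one, where 4.01% did. No start region was listed as changed with H2O2, where 0.163% of start regions of coding genes were listed as higher and 0.114% as lower. For the 5 starts of MAFG, GCLM, PRDX2, FTL and TALDO1, chosen by the untreated list, the rank with H2O2 was higher in siOrc6 than in siGl3 cells. The values were 99.5 against 95.9, 88.4 against 86.2, 79.0 against 72.3, 99.9 against 96.7 and 83.0 against 74.3. NQO1 ranked at 98.2 against 97.5. At MAFG, NQO1 and FTL this sets 1 peak in siOrc6 cells against 2, 2 and 4 peaks in siGl3 cells. No such share over start regions of coding genes is set beside these values, so they cannot be read as particular to these genes. Whether the siOrc6 difference itself depends on H2O2 was not tested.

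Untreated siGl3 cells were the lowest of the 4 lists at many of these starts. By rank among shared regions they were lowest at 19 of 34 (55.9%), against 56.8% of start regions of coding genes. The share is near the background.

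A wider list of 55 further genes of the same pathways was counted in the same way. Of its 250 regions, 171 (68.4%) were in all 4 lists, 21 (8.40%) overlapped a region higher in untreated siOrc6 cells, where 6.38% of regions near coding genes did, and 5 (2.00%) a lower one, where 4.26% did. All 43 start regions found for it were in all 4 lists, and 5 of the 43 were listed as higher, where 8.15% of start regions of coding genes were. With H2O2, 1 of the 250 regions (0.40%) was listed as higher, where 0.706% of regions near coding genes were, and 2 (0.80%) as lower, where 1.06% were. The genes with the most overlaps were BACH2, a relative of BACH1, with 4 higher without H2O2 and 1 lower with it, and SQSTM1, an autophagy receptor that competes for KEAP1, with 3 higher and 1 lower without H2O2. MSRA followed with 2 higher and 1 lower without H2O2, and MGST1 with 3 overlaps at 2 regions. AKR1C3, BLVRA, GPX8, TIGAR and TXN2 tied with 2 overlaps each, the last 3 named after their values were seen. BACH2 and MSRA are long genes with 36 and 19 regions. In AKR1C3 the same region (chr10:5071184-5072029) was listed as higher with and without H2O2, at the 70.8 and 73.1 percentiles in siOrc6 cells, against 46.3 and 49.9 in siGl3 cells.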

How the data were processed

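ATAC-seq of U2OS cells was deposited as 1 peak list per condition, whose name carries both replicate numbers, and 4 lists of regions higher or lower in siOrc6. Per the submitters' processing notes, build hg38 and the tools Genrich, edgeR, Bowtie2, bcl2fastq 2.20, deepTools, SAMtools and Picard were used; roles, order, thresholds, the transposase shift and duplicate handling are not given in the sources used here. The deposited peak signal, −log10 p-value and −log10 q-value are the authors' values per peak; the deposited display score was not used. Lists of changed regions hold positions only. Between 147 and 168 peaks per list lay outside chromosomes 1 to 22 and X and were left out. Overlap meant at least 1 bp. Gene spans came from RefSeq GRCh38.p14 (19974 coding genes), and all 36 members were found.

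No test was made: each condition had 1 list. Values over members stand beside those over regions near coding genes. Gene text follows a rule: members with a listed change, the 8 largest same-sign rank differences at starts, 8 core genes always, members missing from lists, and at most 6 wider-list genes by number of listed changes, ties by name. Members and lists were chosen with earlier results of these data known. The merging, ranking and overlap code was tested on simulated data. Alternatives were windows, stricter peaks, merging, overlap and rank measures. Software was pandas 2.3.3, scipy 1.17.1, numpy 2.4.6 and matplotlib 3.10.9 under Python 3.11.15.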

Additional observations from a re-analysis of the deposited data

How the results depend on the processing

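No paired analysis was possible because each condition had 1 list made from both libraries, and for the same reason no library could be left out. Depth is unknown. Of 105 values under other settings, 95 stayed within the 95% interval around the reported value (Wilson for a share, order statistics for a median) and 10 did not. Within 1 kb of either gene end, 86.96% of regions were in all 4 lists, 2.22% of those in siOrc6 cells were listed only with H2O2 and 0% only without, and 0% were at lower regions with or without H2O2. In siOrc6 cells the share listed only without H2O2 was 2.75% of merged regions with the 80000 peaks of highest signal per list. It was 12.6% of single peaks when midpoints had to lie within 500 bp. The median rank difference in siGl3 cells was 2.27 with the 50000 highest peaks and 2.06 by −log10 p. Without NFE2L3, 0% of regions were at higher regions with H2O2. Of 48 rank differences of the 8 leading starts under other measures, 8 turned sign: GCLM in siGl3 cells (-3.57, per base pair), SLC7A11 in siOrc6 cells (-3.05 by −log10 p, -32.5 per base pair), and TKT in siOrc6 (0.27 by −log10 p, 16.3 per base pair) and siGl3 cells (1.88 summed, 10.1 by −log10 p, 24.2 per base pair). Apart from the summed signal of split peaks, the cause was not tested.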
